A study of Mus musculus with 15 samples.

Results

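Described here are 10 genes of the core pluripotency network and the Dppa family in differentiating cells of a mouse embryonic stem cell line. The genes are Pou5f1, Sox2, Nanog, Sall4, Utf1, Dppa2, Dppa3, Dppa4, Dppa5a and L1td1. They were chosen by name from a table of 24451 genes. All 10 were found in it, and all 10 were among the 14600 genes with enough counts to be tested. Each was followed across 15 libraries in 5 groups of 3. All libraries came from the ES-R1 line, a mouse embryonic stem cell line kept without serum on N2 and B27 supplements. All 15 were of day 4 of differentiation, so changes are relative to other cells of that day. All cells carried an siRNA. The groups were Vprbp siRNA with Activin A at 25 ng/ml, control siRNA with Activin A at 25 ng/ml, control siRNA with SB, Vprbp siRNA with no addition, and control siRNA with no addition. SB stands for the inhibitor, spelled SB431524 in the sample titles and SB431542 in the series text. The sources used here give no dose for it. SB was not combined with Vprbp siRNA. Every library came from a single cell line, so differences between lines were not measured. Nothing in the labels says whether the replicates of a group were separate cultures, so a p-value here measures the spread between these libraries only, and that spread may be technical.

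Pou5f1 (the gene for Oct4), Sox2 and Nanog encode transcription factors that bind together at enhancers of embryonic stem cells, their own genes included, and hold the cells undifferentiated. Sall4 is a zinc-finger partner of these factors, and Utf1 is a chromatin-bound factor of undifferentiated cells. The Dppa genes share the name developmental pluripotency associated but encode unrelated kinds of protein. Dppa2 and Dppa4 are related SAP-domain chromatin proteins that work as a pair, Dppa3 (also Stella) guards DNA methylation in the egg and early embryo, and Dppa5a and L1td1 encode RNA-binding proteins. Activin A and Nodal signal through type I receptors that phosphorylate Smad2 and Smad3, and SB inhibits those receptors. This signalling is known to sustain the primed, epiblast-like state of pluripotency, and Nanog is among its known targets there. Vprbp (Dcaf1) recruits substrates to a CRL4 ubiquitin ligase.

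Some members are neighbours in the genome. On GRCm38.p6, of the assembly also called mm10, the RefSeq gene table places Dppa4 at chr16:48283735-48294292 and Dppa2 at chr16:48310274-48319513, both on the plus strand, 16.0 kb apart with 0 RefSeq genes between them. It places Dppa3 at chr6:122626424-122630271 and Nanog at chr6:122707489-122714633, both on the plus strand and 77.2 kb apart. Between Dppa3 and Nanog lie 4 RefSeq genes, of which 0 are protein-coding. Pou5f1 lies at chr17:35506032-35510777, Sox2 at chr3:34649995-34652461 within the noncoding gene Sox2ot, Utf1 at chr7:139943856-139945112 and L1td1 at chr4:98726754-98738486, all on the plus strand. Sall4 lies at chr2:168748332-168767201 and Dppa5a at chr9:78367052-78368199, both on the minus strand. Pseudogenes named Nanog-ps1, Nanog-ps2 and Dppa3-ps are annotated in GENCODE M21, so reads of Nanog and Dppa3 may be split with their copies. Only names made of a member's name followed by -ps were searched, so copies of any member under other names would be missed. Sox2 and Sox2ot are annotated on the same strand, so reads of the overlapping stretch cannot be assigned to either by strand.

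RefSeq promoter windows, from 250 bases before to 50 bases after the annotated start, matched 5 of the 10 members: Pou5f1, Sox2, Nanog, Utf1 and L1td1. Sall4, Dppa2, Dppa3, Dppa4 and Dppa5a had no entry. The windows of Nanog, Sox2 and Pou5f1 are shown because these genes encode the core factors of the network and 2 of the 3 windows hold the short sequence that Oct4 recognises. Each is written 5′ to 3′ on the plus strand in lower case, with the named motif in capitals. In the Nanog window, chr6:122707239-122707538, the capitals are the octamer core TTTGCAT at position -75 from the start and the Sox element ACAATG at position -67, with 1 base between them. In the Sox2 window, chr3:34649745-34650044, the capitals are ATGCAAA, the octamer core read on the minus strand, at position -99. In the Pou5f1 window, chr17:35505782-35506081, the capitals are the GC box GGGCGG at position -45.
Nanog: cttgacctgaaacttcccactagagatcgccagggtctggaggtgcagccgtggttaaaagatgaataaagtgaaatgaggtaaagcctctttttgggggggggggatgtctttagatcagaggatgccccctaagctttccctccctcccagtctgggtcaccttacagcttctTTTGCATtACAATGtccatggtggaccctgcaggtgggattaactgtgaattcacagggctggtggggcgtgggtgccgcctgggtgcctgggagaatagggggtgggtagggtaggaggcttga
Sox2: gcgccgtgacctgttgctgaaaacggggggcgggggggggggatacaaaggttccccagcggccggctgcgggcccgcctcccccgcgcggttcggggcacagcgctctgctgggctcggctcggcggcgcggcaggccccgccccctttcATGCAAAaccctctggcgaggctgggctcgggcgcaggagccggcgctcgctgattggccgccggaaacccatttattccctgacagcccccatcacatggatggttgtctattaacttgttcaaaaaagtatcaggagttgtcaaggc
Pou5f1: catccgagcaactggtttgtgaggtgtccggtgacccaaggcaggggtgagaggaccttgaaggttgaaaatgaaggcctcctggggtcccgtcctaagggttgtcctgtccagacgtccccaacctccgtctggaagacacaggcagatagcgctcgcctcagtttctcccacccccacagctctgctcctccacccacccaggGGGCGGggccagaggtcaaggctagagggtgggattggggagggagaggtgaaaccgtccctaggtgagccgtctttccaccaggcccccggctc

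The motifs were searched as exact letters on both strands of all 32851 windows of the same length. The octamer core TTTGCAT was in 4.6% of them, the Sox element ACAATG in 12.6%, the second Sox element CTTTGTT in 5.9%, the Smad element CAGAC in 49.6%, GGGCGG in 35.7%, TATAAA in 13.6% and CCAAT in 37.4%. The octamer core followed by ACAATG after 1 base was in 2 windows (0.006%), and the Nanog window was 1 of them. CAGAC was found in the windows of Pou5f1, Nanog, Utf1 and L1td1, and GGGCGG in those of Pou5f1, Sox2 and Utf1, and both of these short motifs are common over all windows. CCAAT was found in the windows of Pou5f1 and Sox2, and CTTTGTT and TATAAA in none of the 5. These are matches of letters, and no binding was measured.

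Libraries held 11.1 M to 15.5 M counts in genes (M, mega). Levels are CPM, that is counts per equal library total, on TMM-scaled library sizes. All 6 markers listed for embryonic stem cells (Pou5f1, Sox2, Nanog, Zfp42, Esrrb and Tdgf1) were detected in every group. Lefty1, a feedback inhibitor of Nodal, averaged 254.7 ± 16.7 CPM in Activin cells with control siRNA and 1.56 ± 0.22 CPM in SB cells, against 81.8 ± 37.9 CPM in untreated control siRNA cells (SD, n = 3 each). Nodal itself averaged 38.9 ± 4.61 CPM in SB cells, against 77.4 ± 12.0 CPM in untreated control siRNA cells. Vprbp averaged 122 ± 8.91 CPM in Vprbp siRNA cells, against 171 ± 3.60 CPM in control siRNA cells, without addition, so its knockdown was partial in RNA. In a principal component analysis of the tested genes, 3 libraries stood apart from their groups: replicate 1 of Vprbp siRNA with Activin, replicate 3 of untreated Vprbp siRNA and replicate 3 of untreated control siRNA. The last of these was the lowest of its group for 7 of the 10 members and the highest for Pou5f1 and Sall4.

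Levels of different genes are compared per length, as CPM divided by the kilobases of annotated exon. In untreated control siRNA cells the level of Utf1 was 711 ± 78 CPM per kb, of Sox2 400.0 ± 68, of Dppa5a 348 ± 53, of Pou5f1 312 ± 16 and of Nanog 180.0 ± 17 CPM per kb (SD, n = 3). The level of L1td1 was 111 ± 26 CPM per kb, of Sall4 88.6 ± 6.0, of Dppa4 27.6 ± 3.0, of Dppa2 18.3 ± 2.5 and of Dppa3 7.72 ± 1.8 CPM per kb. The ranges of mean ± SD of neighbours in this order overlapped for Sox2 and Dppa5a, for Dppa5a and Pou5f1, and for L1td1 and Sall4. The 7 genes from Utf1 to Sall4 were each above at least 97.4% of the tested genes that have an annotated length, and Dppa3 was above 57.2% of them.

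**Figure D1:**
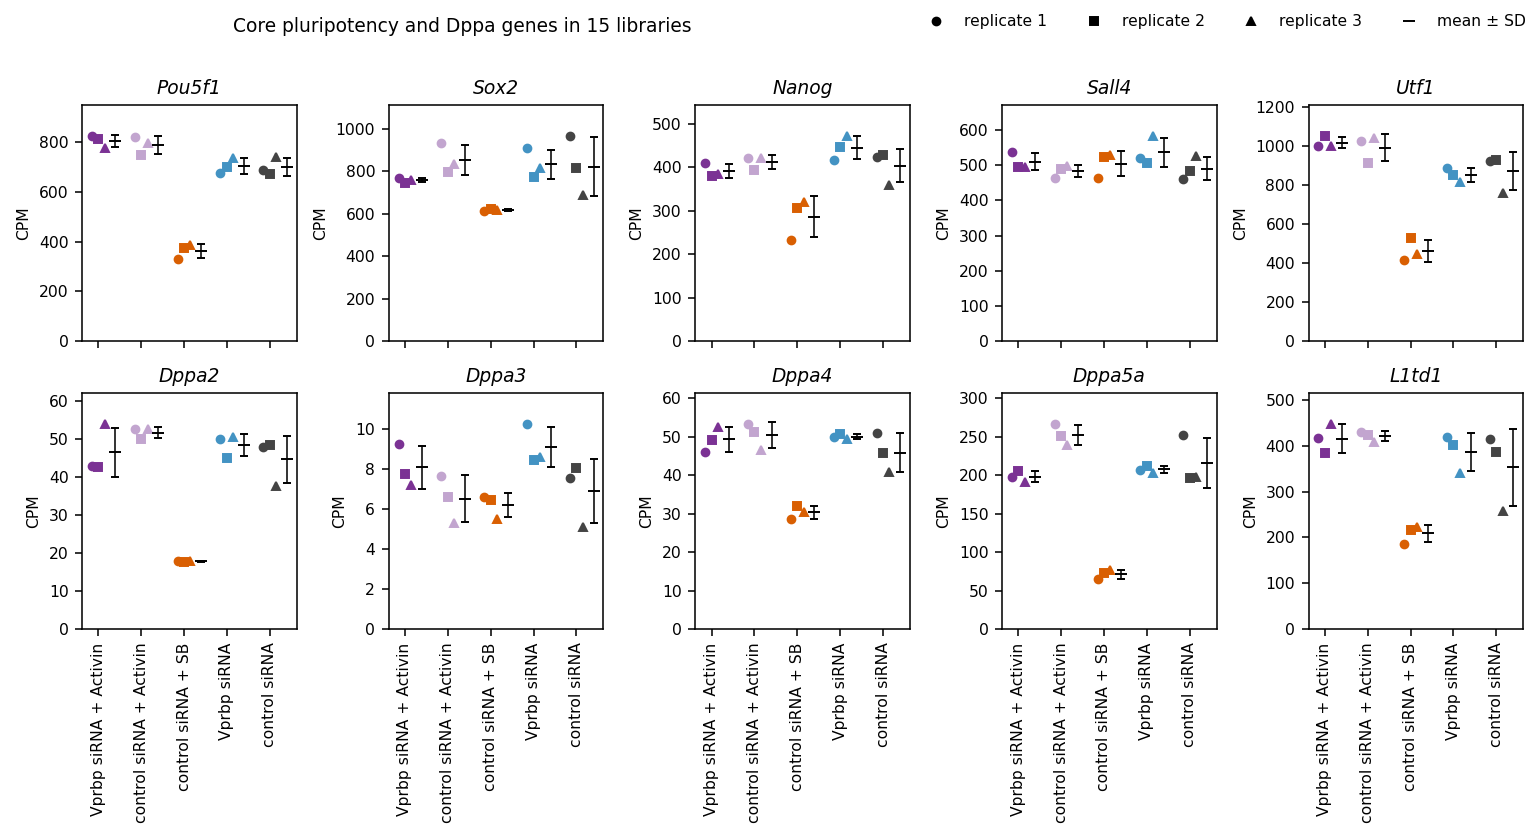
CPM of each of the 10 genes (y axis, from 0) in the 5 groups (x axis), with symbols for the 3 replicates and a bar for the mean ± SD. For 8 genes the SB libraries lie below all 12 other libraries, and for Sall4 and Dppa3 they lie among them.

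The comparison of SB cells with untreated cells, both with control siRNA, describes how these genes differed when the inhibitor was added. Whether a difference came through the Activin/Nodal receptors or through another effect of SB was not tested. In SB cells 8 of the 10 members fell and 0 rose. Dppa5a, Dppa2, Pou5f1 and Utf1 fell the most, L1td1, Dppa4, Nanog and Sox2 fell less, and Sall4 and Dppa3 did not pass the threshold. Calls are those of edgeR's quasi-likelihood test at a Benjamini-Hochberg adjusted p under 0.05 over all 14600 genes. Over all genes tested 22.6% changed with SB, of which the lower ones made up 11.3% of genes and the higher ones 11.2%. The median log2 fold change was -0.68 over the 10 members and -0.005 over all genes tested. In RNA from whole cultures, fewer cells of a type and less RNA per cell cannot be told apart.

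Pou5f1 was at 333, 375 and 385 CPM in SB cells, against 688, 673 and 741 CPM in untreated control siRNA cells. All 3 SB libraries were well below all untreated ones. The log2 fold change was -0.94 ± 0.07 (SE, adjusted p = 2.6e-09), a level that fell by 48.0%. Sox2 was at 612, 621 and 618 CPM in SB cells, against 966, 815 and 688 CPM in untreated control siRNA cells. The SB libraries lay close together and the untreated ones were spread widely, with the third untreated library nearest to the SB group. Its log2 fold change was -0.42 ± 0.09 (SE, adjusted p = 0.0028). Nanog was at 232, 307 and 319.7 CPM in SB cells, against 423, 428 and 359 CPM in untreated control siRNA cells. The groups did not overlap, and replicate 1 of SB was lower than the other two. Its log2 fold change was -0.49 ± 0.10 (SE, adjusted p = 0.00087).

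Sall4, the zinc-finger partner of these factors, was at 463, 522 and 529.9 CPM in SB cells, against 460, 485 and 526 CPM in untreated control siRNA cells, and the groups overlapped. Its log2 fold change was 0.04 with a 95% interval of -0.10 to 0.19, so a fall of the size seen for Sox2 lay outside that interval. Utf1 was at 417, 528 and 448 CPM in SB cells, against 925, 931 and 762 CPM in untreated control siRNA cells. No library of one group came near the other. Utf1 fell by 46.8% (log2 fold change -0.91 ± 0.09, SE, adjusted p = 2.1e-07).

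Among the Dppa genes, Dppa5a fell the most. It was at 64.6, 72.4 and 76.5 CPM in SB cells, against 253, 196 and 197 CPM in untreated control siRNA cells. The highest SB library was far below the lowest untreated one. The level fell by 67.0% (log2 fold change -1.60 ± 0.09, SE, adjusted p = 2.3e-10), and 1.31% of all tested genes had a lower fold change. Dppa2 was at 18.0, 17.7 and 17.8 CPM in SB cells, against 48.0, 48.6 and 37.6 CPM in untreated control siRNA cells. The SB libraries were nearly equal and all lay below the untreated ones. The level fell by 60.1% (log2 fold change -1.33 ± 0.11, SE, adjusted p = 2.4e-08).

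Dppa4, the partner and genomic neighbour of Dppa2, was at 28.5, 31.9 and 30.4 CPM in SB cells, against 50.8, 45.8 and 40.8 CPM in untreated control siRNA cells. The groups did not overlap, and the fall was smaller than that of Dppa2. The level fell by 33.9% (log2 fold change -0.60 ± 0.09, SE, adjusted p = 4.1e-05). Dppa3, the neighbour of Nanog, was the lowest expressed member, at 6.61, 6.44 and 5.51 CPM in SB cells, against 7.53, 8.05 and 5.09 CPM in untreated control siRNA cells. The groups overlapped, and its log2 fold change was -0.16 with a 95% interval of -0.54 to 0.23. L1td1 was at 186, 217 and 223 CPM in SB cells, against 415, 386 and 258 CPM in untreated control siRNA cells. The groups did not overlap, and the third untreated library lay nearest to the SB group. L1td1 fell by 41.0% (log2 fold change -0.76 ± 0.14, SE, adjusted p = 0.0018). In a fit of only the 6 libraries compared with a replicate block, its adjusted p was 0.062 (log2 fold change -0.74), the 1 case of 15 alternatives in which a fall of the 8 members was not called.

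The groups did not overlap for the 8 members that fell, beside 18.4% of all genes tested whose SB libraries were all lower. Leaving out any 1 of the 6 libraries left 8 members called. Without the 3 libraries that stood apart, 8 members were called as well. Replicate 1 of SB was the lowest of its group for 8 of the 10 members.

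**Figure D2:**
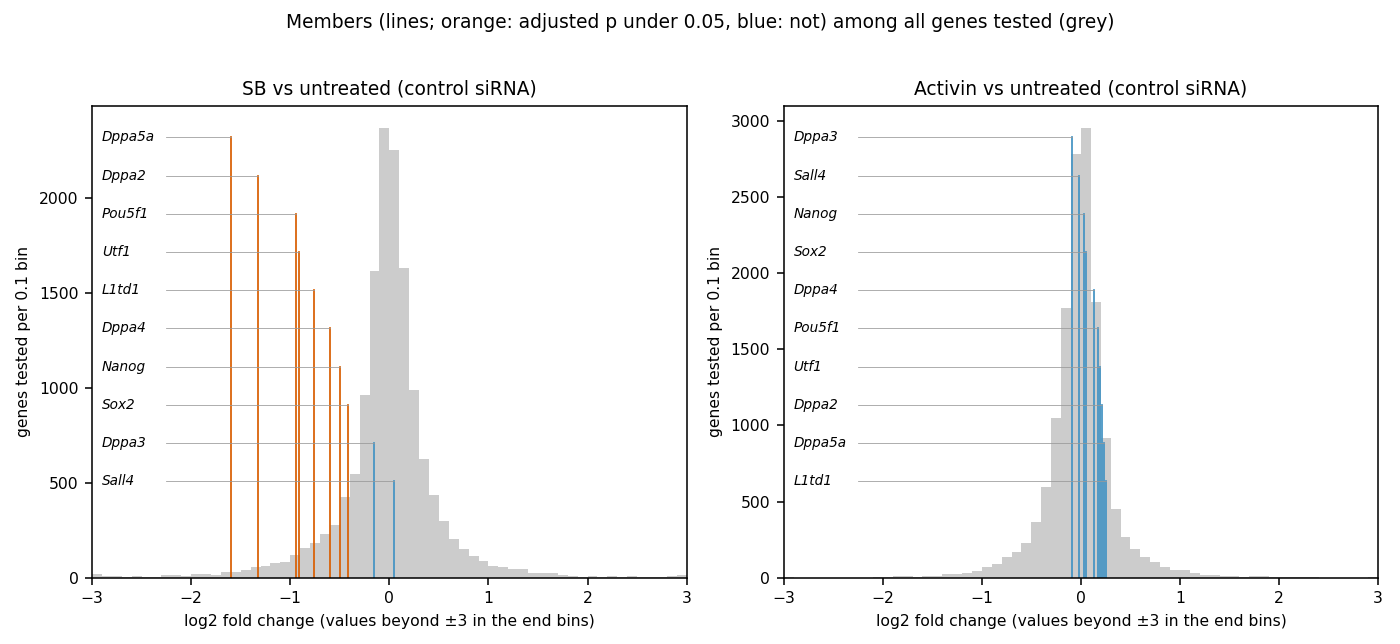
Number of tested genes per 0.1 of log2 fold change (grey, y axis) against log2 fold change (x axis) for SB against untreated and for Activin against untreated cells, both with control siRNA, with a line for each of the 10 genes (orange where the adjusted p was under 0.05, blue where it was not). With SB 8 genes lie in the left flank, from -1.60 for Dppa5a to -0.42 for Sox2, and with Activin all 10 lie between -0.09 and 0.25.

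The fold changes of the members with SB differed in size, so some ratios between members are described, from the same libraries. The pairs were chosen with these fold changes known, so a separation of their groups with SB is no separate support. The share of other gene pairs that separate in this way was not computed. The ratio of Dppa2 to Dppa4 in CPM was 0.591 ± 0.040 in SB cells and 0.975 ± 0.074 in untreated control siRNA cells (SD, n = 3 each). The ratio of Pou5f1 to Sox2 was 0.590 ± 0.041 in SB cells and 0.872 ± 0.19 in untreated control siRNA cells. The ratio of Sall4 to Pou5f1 was 1.39 ± 0.010 in SB cells and 0.700 ± 0.027 in untreated control siRNA cells, and that of Nanog to Pou5f1 was 0.782 ± 0.073 in SB cells and 0.579 ± 0.082 in untreated control siRNA cells. For each of these 4 ratios the groups did not overlap. The two-sided exact permutation test gave p = 0.1 for each, the smallest that 3 libraries against 3 can give, so these differences could not pass a threshold of 0.05. In all, 12 such ratio comparisons were made, the others between Activin and untreated cells with each siRNA. Separation was not particular to SB. With Vprbp siRNA the groups were also apart for Pou5f1 to Sox2 (mean 1.06 with Activin, 0.851 untreated). The same held there for Nanog to Pou5f1 (0.486 and 0.63) and Sall4 to Pou5f1 (0.633 and 0.76). With control siRNA they were apart for Sall4 to Pou5f1 (0.613 with Activin, 0.700 untreated). For the remaining Activin ratios the groups overlapped.

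Most members were still highly expressed in SB cells. Per length, Utf1 was at 378 ± 47 CPM per kb in SB cells, Sox2 at 300.0 ± 2.4, Pou5f1 at 162 ± 12, Nanog at 128 ± 21 and Dppa5a at 115 ± 9.7 CPM per kb (SD, n = 3). Each of these stood above at least 98.5% of tested genes with a length. Dppa2, at 7.29 ± 0.076 CPM per kb in SB cells, stood above 55.4% of them, and in untreated control siRNA cells, at 18.3 CPM per kb, above 78.3%.

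Other genes of pluripotency were mixed in SB cells. Of 13 genes of the naive state, 4 fell and 0 rose, with a median log2 fold change of -0.23: Fgf4, the growth factor gene that Oct4 and Sox2 are known to activate, fell by 1.00 ± 0.09 (SE) on the log2 scale, Tcl1 by 1.11 ± 0.11, Nr0b1 by 0.36 ± 0.11 and Fbxo15 by 0.23 ± 0.08. Esrrb averaged 554 ± 63.5 CPM in SB cells and 689.5 ± 148 CPM in untreated control siRNA cells (SD, n = 3 each) and did not pass the test (adjusted p = 0.16). Zfp42 averaged 168 ± 11.6 CPM in SB cells and 181 ± 12.5 CPM in untreated control siRNA cells and did not pass it either (adjusted p = 0.38). Of 14 general pluripotency and self-renewal genes, 5 fell and 3 rose, with a median of -0.053. Tdgf1, the gene for the Nodal co-receptor Cripto, fell by 2.88 ± 0.31 (SE) on the log2 scale, and Zscan10 and Jarid2 were among those that fell by less. Lin28a, an RNA-binding protein that blocks let-7 maturation, rose by 0.71 ± 0.08, and Rif1 and Eras rose as well.

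Of 12 genes of the primed and formative epiblast, 7 fell and 2 rose, with a median log2 fold change of -0.65. Foxd3 fell by 2.03 ± 0.36, Zic2 by 1.26 ± 0.18 and the DNA methyltransferase gene Dnmt3a by 0.84 ± 0.12 (SE) on the log2 scale, and Sox11 and Cdh2 rose. Of 10 primordial germ cell genes tested, out of 11 listed, 5 fell and 1 rose: Mael fell by 1.23 ± 0.14 and Dazl by 0.85 ± 0.14 (SE) on the log2 scale, Ddx4, Nanos3 and Sycp3 fell as well, and Kit, a receptor of germ cells and early embryonic cells, rose by 0.39 ± 0.08. The median of that list was -0.39. Of 15 genes of the 2-cell stage that are textbook targets of Dppa2 and Dppa4, 4 had enough counts to be tested and 3 of them fell. These were Zscan4d, Usp17la and Zscan4a, which averaged 0.241, 0.241 and 0.217 CPM in SB cells, against 1.12, 1.12 and 0.835 CPM in untreated control siRNA cells. The SB values are near the level of 3 counts in a library (0.193 to 0.269 CPM), and these genes belong to families of near-identical copies.

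Of the paralogs of the members, 14 of 16 were tested, 7 fell and 2 rose, with a median log2 fold change of -0.31. Sall1, a paralog of Sall4, rose to 784.5 ± 18.7 CPM in SB cells, against 499.5 ± 26.3 CPM in untreated control siRNA cells (SD, n = 3 each, log2 fold change 0.65 ± 0.07, SE, adjusted p = 2.2e-06). Sall1 was thus higher in SB cells, where Sall4 did not pass the test. Sox21 rose by 1.00 ± 0.17 on the log2 scale, while Pou2f2, an octamer-binding paralog of Pou5f1, fell by 1.27 ± 0.15, Sox3 by 1.26 ± 0.21 and Sox1 by 0.88 ± 0.13 (SE).

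Markers of another cell type moved with SB. Of the trophoblast markers 6 of 9 tested (10 listed) rose and 0 fell, with a median log2 fold change of 1.58. Their summed level was 168.5 to 228 CPM in SB cells, against 82.3 to 91.8 CPM in untreated control siRNA cells. Most of that sum, in both groups, came from listed genes other than Gata2, Hand1, Cdx2 and Elf5. Gata2 averaged 15.4 ± 1.91 CPM in SB cells and 3.28 ± 0.754 CPM in untreated control siRNA cells, and Hand1 12.0 ± 2.44 CPM in SB cells and 2.94 ± 0.0786 CPM in untreated control siRNA cells (SD, n = 3 each). Of the defining markers, Cdx2 averaged 0.747 CPM in SB cells and 1.11 CPM in untreated control siRNA cells, and Elf5 was at 0 in all 3 untreated control siRNA libraries and at most 0.358 CPM in SB libraries. Whether trophoblast cells were present, or had a part in the falls of the members, was not tested.

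Fewer genes changed in each of the other cell type lists. In SB cells 1 neuroectoderm gene of 8 tested rose (Pax6) and 1 fell (Sox1), and the summed level of the 10 listed was 181 to 208 CPM in SB cells, against 197.5 to 223 CPM in untreated control siRNA cells. Of 6 primitive streak and mesoderm genes tested (9 listed) 0 changed, with sums of 13.8 to 17.5 CPM in SB cells, against 18.9 to 23.8 CPM in untreated control siRNA cells. Of 9 extraembryonic endoderm genes tested (10 listed) 1 rose (Sox7), with sums of 134 to 174 CPM in SB cells, against 141 to 158 CPM in untreated control siRNA cells. Of 8 fibroblast or feeder cell genes tested (10 listed) 2 fell (Col1a1 and Col3a1) and 1 rose (Acta2), with sums of 46.5 to 65.2 CPM in SB cells, against 59.0 to 80.7 CPM in untreated control siRNA cells. Whether cells of these types were present, or had a part in the members' values, was not tested.

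**Figure D3:**
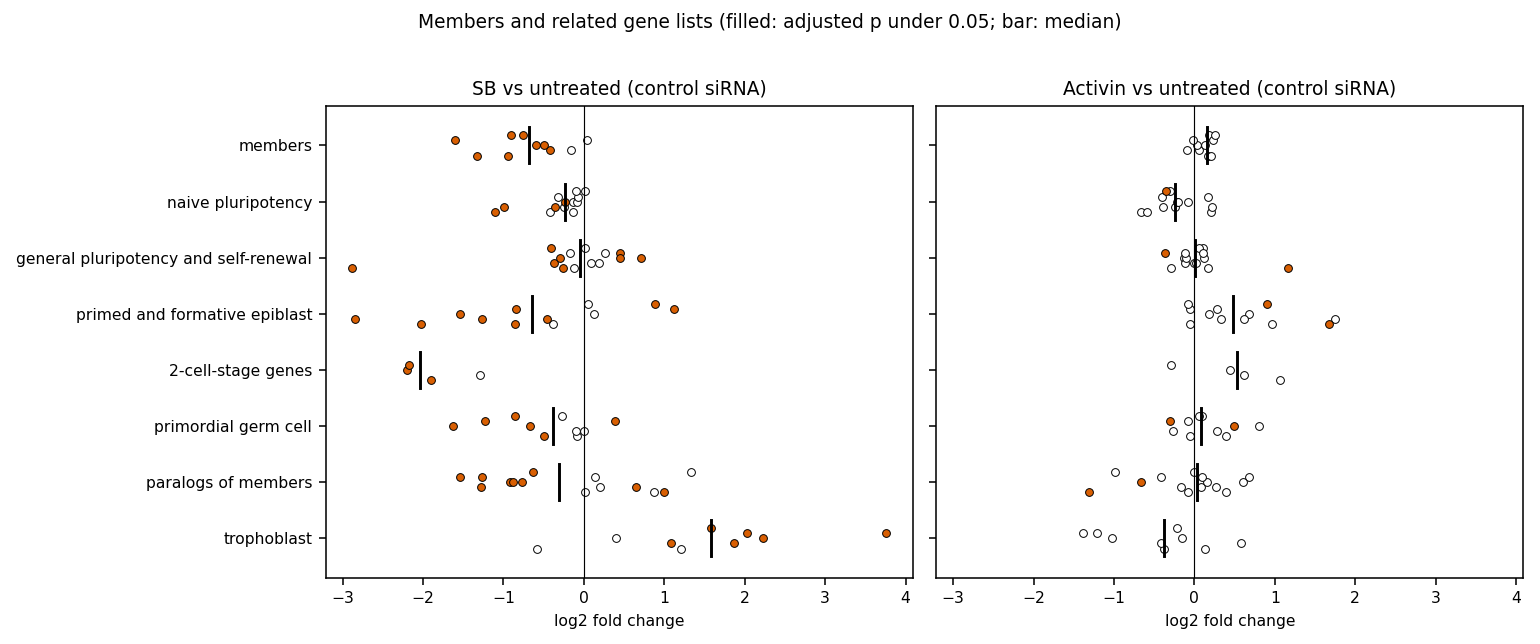
Log2 fold change (x axis) of each tested gene of 8 lists (rows) for SB against untreated and Activin against untreated cells, both with control siRNA; filled points had an adjusted p under 0.05 and the vertical bar is the list's median. With SB the members have a median of -0.68, the primed list -0.65 and the trophoblast list 1.58.

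Activin was compared with untreated cells in each siRNA background to ask what more of the signal does. None of the 10 members passed the threshold in either background alone (0 of 10 in each), beside 4.83% of all genes tested with control siRNA and 6.12% with Vprbp siRNA. The comparison with control siRNA uses the same 3 untreated libraries as the comparison with SB. Pou5f1 was at 822, 750.3 and 797 CPM in Activin cells, against 688, 673 and 741 CPM in untreated cells, both with control siRNA. With Vprbp siRNA it was at 825, 813 and 777 CPM in Activin cells, against 676, 701 and 739 CPM in untreated cells. In both backgrounds all Activin libraries were above all untreated ones. The log2 fold changes were 0.17 ± 0.06 (SE, adjusted p = 0.12) with control siRNA and 0.19 ± 0.06 (SE, adjusted p = 0.084) with Vprbp siRNA. Without replicate 3 of Vprbp siRNA with Activin, Pou5f1 passed the threshold in that background (adjusted p = 0.048), and by DESeq2 it passed with all libraries (adjusted p = 0.046).

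Utf1 was at 1026, 915 and 1041 CPM in Activin cells, against 925, 931 and 762 CPM in untreated cells, both with control siRNA. Replicate 2 of the Activin group lay among the untreated libraries. With Vprbp siRNA Utf1 was at 1004, 1052 and 999.7 CPM in Activin cells, against 889.7, 853 and 816 CPM in untreated cells, without overlap. The log2 fold changes were 0.19 ± 0.08 (SE, adjusted p = 0.21) with control siRNA and 0.26 ± 0.08 (SE, adjusted p = 0.078) with Vprbp siRNA.

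Taking the mean of the Activin effect over both siRNAs, which draws on 12 libraries, Pou5f1 and Utf1 rose. Pou5f1 rose by 0.18 ± 0.05 (SE, edgeR adjusted p = 0.0088) and Utf1 by 0.22 ± 0.06 (SE, adjusted p = 0.015) on the log2 scale. These are 2 of 10 members, beside 8.45% of all genes tested that were higher, 7.40% that were lower and 15.8% that changed in that mean. Pou5f1 was called in 21 of 21 alternatives. Utf1 was called in 20 of 21, and without the 3 libraries that stood apart its log2 fold change was 0.17 (adjusted p = 0.056). Dppa5a was called in 1 of 21, without replicate 1 of untreated control siRNA (log2 fold change 0.15, adjusted p = 0.042), which made 3 members.

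Sox2 and Nanog did not pass the threshold with Activin. With Vprbp siRNA Sox2 was at 768, 748 and 759 CPM in Activin cells, against 909.8, 776 and 814 CPM in untreated cells. Nanog was at 409.6, 379 and 385 CPM in Activin cells, against 417, 445.5 and 471 CPM in untreated cells. All Activin libraries lay below all untreated ones for both genes in that background, by a narrow margin. The log2 fold changes were -0.14 ± 0.09 (SE, adjusted p = 0.45) for Sox2 and -0.18 ± 0.09 (SE, adjusted p = 0.29) for Nanog. With control siRNA both genes overlapped between the groups, at log2 fold changes of 0.05 ± 0.09 and 0.03 ± 0.09 (SE). With Vprbp siRNA the groups were apart for 2 members higher and 2 lower with Activin, beside 11.2% and 10.2% of all genes.

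Sall4 averaged 483 ± 17.6 CPM in Activin cells and 490.3 ± 33.3 CPM in untreated cells with control siRNA (SD, n = 3 each), a log2 fold change of -0.02 ± 0.07 (SE). Of the Dppa genes, Dppa2 was at 52.6, 50.04 and 52.8 CPM in Activin cells, against 48.0, 48.6 and 37.6 CPM in untreated cells with control siRNA. All Activin libraries were above all untreated ones, and the log2 fold change was 0.21 ± 0.10 (SE, adjusted p = 0.23). Pou5f1 and Dppa2 were the 2 members whose groups were apart with control siRNA, both higher with Activin, beside 14.0% of all genes. Dppa5a was at 266.5, 251 and 239.8 CPM in Activin cells, against 253, 196 and 197 CPM in untreated cells with control siRNA. The first untreated library lay among the Activin ones, and without it Dppa5a passed the threshold (log2 fold change 0.36, adjusted p = 0.0083). With all libraries the log2 fold change was 0.23 ± 0.08 (SE, adjusted p = 0.12).

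Dppa4, Dppa3 and L1td1 had log2 fold changes with Activin of 0.13 ± 0.09, -0.09 ± 0.19 and 0.25 ± 0.14 with control siRNA, and of -0.02 ± 0.09, -0.17 ± 0.18 and 0.10 ± 0.14 with Vprbp siRNA (SE). The groups overlapped for all 3 genes in both backgrounds. At an unadjusted p under 0.05 were 4 of 10 members with control siRNA (Pou5f1, Utf1, Dppa2 and Dppa5a), beside 20.6% of all genes tested, and 2 of 10 with Vprbp siRNA (Pou5f1 and Utf1), beside 19.7%, a share near the background. DESeq2 called 0 members and 940 genes with control siRNA, and 1 member and 1084 genes with Vprbp siRNA.

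In the mean over both siRNAs, the neighbouring lists moved in opposite directions with Activin. Of the 13 naive genes, 8 fell and 1 rose (Fgf4), with a median log2 fold change of -0.37: Zfp42 fell by 0.47 ± 0.06 and Tbx3 by 0.75 ± 0.12 (SE). Of the 12 primed and formative epiblast genes 7 rose and 0 fell, with a median of 0.41: the DNA methyltransferase gene Dnmt3b rose by 0.99 ± 0.08 and Foxd3 by 1.61 ± 0.18 (SE). The median of the 10 members was 0.07, between the 2 lists. Of the 14 general genes 2 rose, Tdgf1 by 1.07 ± 0.20 and Zscan10 by 0.16 ± 0.05 (SE), and 4 fell (Eras, Mybl2, Rif1 and Trim28). Of the 6 primitive streak and mesoderm genes tested 3 rose (T, Eomes and Gsc) and 0 fell. Their summed level was 46.4 to 137 CPM in Activin cells, against 22.1 to 28.7 CPM in untreated cells, with Vprbp siRNA, and 37.4 to 45.7 CPM in Activin cells, against 18.9 to 23.8 CPM in untreated cells, with control siRNA. Of the 8 neuroectoderm genes tested 1 rose (Nes) and 4 fell (Pax6, Sox1, Tubb3 and Zic1), and of the 9 extraembryonic endoderm genes 2 rose (Dab2 and Ttr) and 1 fell (Pdgfra). Of the 9 trophoblast genes tested 1 rose (Krt18, by 0.91 ± 0.21) and 1 fell (Gata2, by 0.92 ± 0.21, SE), with a median of -0.051. The summed trophoblast markers had a lowest, median and highest library of 104, 155 and 313 CPM in Activin cells, against 73.1, 97.2 and 101 CPM in untreated cells, with Vprbp siRNA. With control siRNA they ran from 103 to 115 CPM in Activin cells, against 82.3 to 91.8 CPM in untreated cells. Whether any such cells were present, or had a part in the members' values, was not tested.

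Setting Activin cells directly against SB cells, both with control siRNA, compares the means of the 2 ends of the signal. The untreated libraries are in neither mean, but they still enter the shared estimate of the spread. The SB libraries are the same as in the comparison of SB with untreated cells, so the results of these comparisons are not independent. Of the 10 members 8 were higher in Activin cells and 0 lower, beside 19.0% of all genes tested that were higher and 38.0% that changed. The same 8 had Activin and SB libraries that did not overlap, beside 27.2% of all genes that were higher in this way. The largest log2 fold changes were 1.83 ± 0.09 for Dppa5a, 1.54 ± 0.11 for Dppa2, 1.12 ± 0.07 for Pou5f1 and 1.10 ± 0.08 for Utf1 (SE), with adjusted p of 7.2e-12, 9.7e-10, 6.9e-11 and 6.3e-09. L1td1 was 1.01 ± 0.14, Dppa4 0.73 ± 0.09, Nanog 0.52 ± 0.10 and Sox2 0.47 ± 0.09 (SE) higher on the log2 scale, the highest adjusted p being 0.00054. Sall4 was at -0.06 with a 95% interval of -0.21 to 0.08, and Dppa3 at 0.07 with an interval of -0.32 to 0.46.

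**Figure D4:**
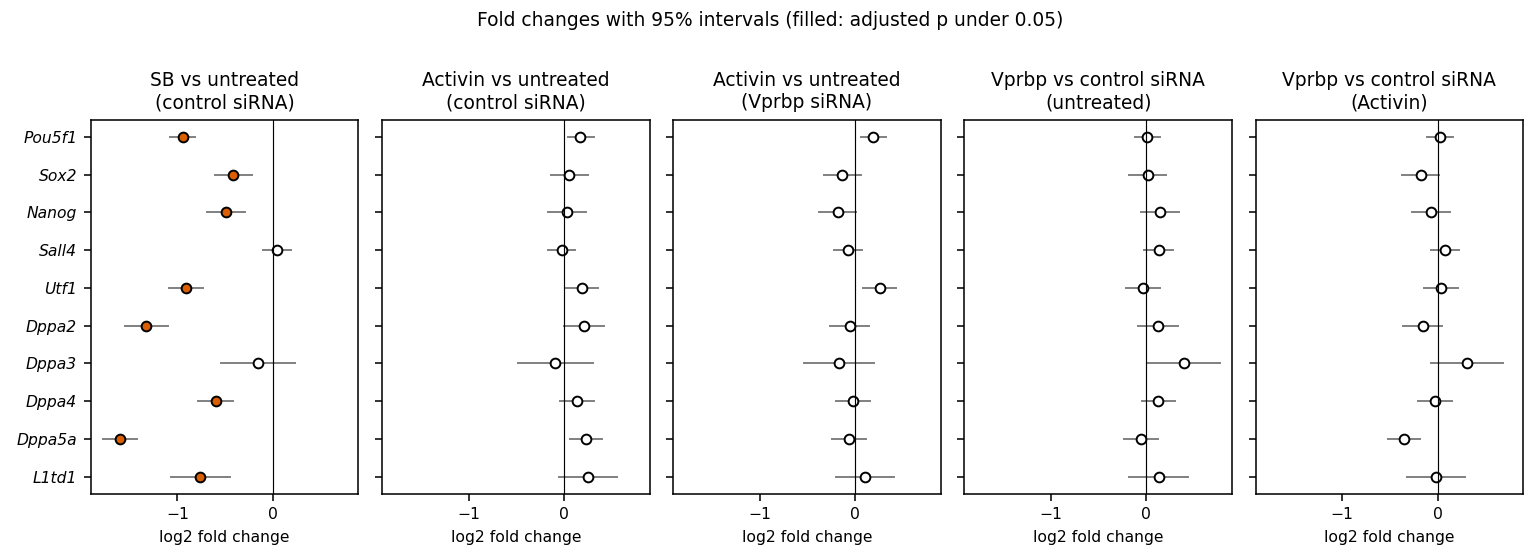
Log2 fold change (x axis) of each of the 10 genes (rows) with its 95% interval in 5 comparisons (panels), filled where the adjusted p was under 0.05. The 8 filled points are all in the comparison of SB with untreated cells, and the knockdown panels hold none.

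Vprbp siRNA was compared with control siRNA to ask what partial loss of Vprbp did. Without Activin 0 of the 10 members passed the threshold, beside 6 of all genes tested (0.0411%), and with Activin 0 of 10 beside 6 (0.0411%). Fitted with a replicate block, the knockdown without Activin called 18 genes, of which 0 were members, and DESeq2 called 31, of which 0 were members. A fit of only the 6 libraries compared called 1 gene, and 333 with the block, and the fit without the 3 libraries that stood apart called 76, again with 0 members in each. Without Activin the members' log2 fold changes lay from -0.05 for Dppa5a to 0.39 for Dppa3. For Pou5f1 the 95% interval was -0.12 to 0.14, for Sox2 -0.18 to 0.21 and for Nanog -0.06 to 0.34. Dppa3 was at 10.2, 8.41 and 8.57 CPM in Vprbp siRNA cells, against 7.53, 8.05 and 5.09 CPM in control siRNA cells. Its groups were apart by a narrow margin, beside 6.64% of all genes whose Vprbp siRNA libraries were all higher. The log2 fold change was 0.39 ± 0.18 (SE, adjusted p = 0.59). Dppa3 was the 1 member of 10 at an unadjusted p under 0.05, beside 1191 of all genes tested (8.16%).

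With Activin, Dppa5a was at 198, 206 and 191 CPM in Vprbp siRNA cells, against 266.5, 251 and 239.8 CPM in control siRNA cells. The groups were apart, as they were for Sox2, beside 9.03% of all genes whose Vprbp siRNA libraries were all lower. The log2 fold change of Dppa5a was -0.35 ± 0.08 (SE) with an adjusted p of 0.13. Dppa5a was the 1 member of 10 at an unadjusted p under 0.05, beside 1532 of all genes tested (10.5%), a share near the background. The unadjusted p of Dppa5a by edgeR was 0.000417, rank 48 by p among the 14600 genes tested. By DESeq2 its adjusted p was 0.033, in a fit of only the 6 libraries compared it was 0.022, and in that fit with a replicate block 0.0088, while over all 15 alternatives it ran up to 0.48. Sox2 was at 768, 748 and 759 CPM in Vprbp siRNA cells, against 934, 796 and 833 CPM in control siRNA cells, both with Activin, a log2 fold change of -0.17 ± 0.09 (SE, adjusted p = 0.52).

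Averaged over cells with and without Activin, the knockdown changed 137 genes (0.938% of those tested) and 0 of the 10 members. Dppa5a had a log2 fold change of -0.20 ± 0.06 (SE, adjusted p = 0.10). That of Dppa3 was 0.35 ± 0.13 (SE, adjusted p = 0.20) and that of Sall4 0.10 ± 0.05 (SE, adjusted p = 0.34). These were the 3 members of 10 at an unadjusted p under 0.05, beside 2138 of all genes tested (14.6%). DESeq2 called 0 members. The other 7 lay between -0.08 and 0.06. Of the lists in that mean, 4 of 12 primed and formative epiblast genes rose (Dnmt3b, Sox11, Lin28b and Cdh2), as did 1 of 14 paralogs (Sox3), beside 0.664% of all genes that were higher.

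The difference between the Activin responses with Vprbp siRNA and with control siRNA was tested as an interaction. No gene passed the threshold by edgeR (0 of 14600 tested, or 0%), and 517 genes (3.54%) had an unadjusted p under 0.05. DESeq2 called 0 members. Among the 517 genes Dppa5a was the 1 member, with a difference of -0.30 ± 0.12 (SE) on the log2 scale. The differences of the other members lay between -0.27 for Dppa2 and 0.07 for Utf1.

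As a description, the genes whose log2 CPM ran most like that of each member over the 15 libraries were sought among 10012 other genes. The libraries share treatments, so each correlation reflects the group differences, and no p is given. Pou5f1 was most like Fgf4 (Pearson r = 0.991, n = 15 libraries), Galnt2 and Fgf17, Utf1 most like Ssh1, Mkrn1 and the Nodal inhibitor gene Lefty1 (r = 0.982), and L1td1 most like Socs2, Dnmt3a and Urb2. Dppa2 was most like Dlc1, Tmem57 and Etnk1, Dppa4 most like Pitpnc1, Mkrn1 and Sema3e, and Dppa5a most like Taf5l, Galnt2 and Cpt1a, with highest r of 0.983, 0.982 and 0.983. Nanog was most like Xbp1 (r = 0.953), Trp53 and D19Bwg1357e, and Sox2 most like Gadd45a (r = 0.921) and Spry4. The nearest genes were less alike for the 2 members that did not pass the test with SB: Trim44 for Sall4 (r = 0.794) and Arhgef26 for Dppa3 (r = 0.849).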

How the data were processed

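RNA sequencing counts of 15 libraries in 5 groups were analysed, with groups and replicate numbers taken from the sample titles. The values are raw fragment counts per gene symbol as the authors deposited them. Per the submitters' processing notes, the tool was HTSeq 0.6.1p1 and the build mm10. For the aligner, the gene annotation and the strandedness, nothing is given in the sources used here. The table's 5 HTSeq tally rows, 39.6% to 44.4% of fragments, were left out of library sizes and tests.

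Genes passing edgeR's filterByExpr (minimum count 10) were tested, 14600 of 24451. Counts were scaled by TMM factors of 0.985 to 1.02 and fitted with edgeR 4.0.16 (robust quasi-likelihood, R 4.3.3), with 1 mean per group over all 15 libraries and Benjamini-Hochberg adjustment within each comparison. CPM are on the scaled library sizes of the tested genes. No replicate pair agreed within sampling noise (chi-square over degrees of freedom 2.82 to 16.7 across genes). Exon lengths come from GENCODE M21, which gave a length for 96.5% of tested genes.

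The members, the comparisons and the 11 gene lists (naive, general and primed pluripotency, 2-cell stage, germ cell, paralogs and 5 cell types) were chosen with earlier results of these data known. Named were all members, Vprbp, Lefty1, Lefty2 and Nodal, up to 4 list genes with the smallest p-values, any gene behind a count of 5 or fewer, and the 3 genes most like each member, among genes averaging 3 or more in log2 CPM. Esrrb, Zfp42, Cdx2 and Elf5 are named outside that rule. A gene that the rule would name is not reported here. A possible pairing by replicate number was checked: across genes, the deviations of libraries with the same number correlated at 0.12, 0.20 and 0.37 between the untreated Vprbp siRNA and control siRNA groups. Other group pairs did not exceed 0.1 at all 3 numbers. Alternatives were RLE factors, library totals, no filter, a filter of 1 CPM in 3 libraries, DESeq2 1.42.0, a replicate block, fits of only the libraries compared, and leaving out each library or the 3 that stood apart. The level of 3 counts in a library, given beside genes near 0, covers counting error only.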

Additional observations from a re-analysis of the deposited data

How the results depend on the processing

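Of 800 values of members and comparisons recomputed without leaving out single libraries, 782 kept their direction and their side of the threshold, and 11 changed direction. With the fits that left out single libraries included, 1450 of 1520 kept both and 60 changed direction. Most of these values were not called in the main fit, and a value far from the threshold keeps its side easily. The count of 8 members that fell with SB was 8 under 14 of 15 alternatives and 7 in a fit of the 6 libraries compared with a replicate block, which lost L1td1 (-0.74). Utf1 lost its call in the mean Activin effect without the 3 libraries apart (0.17), leaving 1 member called there. Members called at 0 became 1 for Activin with control siRNA (Pou5f1, without the 3 libraries apart), for Activin with Vprbp siRNA (Pou5f1, DESeq2) and for the knockdown with Activin (Dppa5a, in DESeq2 and both fits of the libraries compared).

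Without the 3 libraries apart, small values changed sign: with Activin and control siRNA, Nanog -0.051, Sall4 0.03 and Sox2 -0.063; with Activin and Vprbp siRNA, Dppa2 0.029 and Dppa4 0.021; for the knockdown, untreated, Dppa2 -0.02 and Sox2 -0.079, with Activin, Dppa4 0.023, and in the mean, Nanog -0.04 and Utf1 -0.02; and for the interaction, Pou5f1 -0.003.

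Genes called over the whole table moved more than the members did. Activin with control siRNA called 705 genes, 1058 with a replicate block, and Activin with Vprbp siRNA 894, 373 in a fit of the libraries compared. The knockdown without Activin called 6 genes, 10 with no filter, 18 with a replicate block, 31 by DESeq2, 1 in a fit of the libraries compared, 333 in that fit with the block and 76 without the 3 libraries apart. The knockdown with Activin called 6, and 15, 51, 76, 68, 170 and 205 under the same alternatives. The mean knockdown effect called 137, 273 with the block, 343 by DESeq2, 76 in a fit of the libraries compared and 475 without the 3 libraries apart, where the interaction called 1. The pairing by number comes from the data, not the labels, and the block is given beside the knockdown for that reason. Causes were not tested.

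Leaving out single libraries, Activin with control siRNA called 265 genes (without replicate 3 of its Activin group) to 721 and 0 to 1 members, and Activin with Vprbp siRNA 351 (without replicate 3 of untreated Vprbp siRNA) to 1167 and 0 to 1 members. The knockdown called 2 to 37 genes without Activin, 0 to 21 with it and 24 to 395 in the mean, the highest of these without replicate 3 of untreated Vprbp siRNA, of Vprbp siRNA with Activin and of untreated Vprbp siRNA. Members called in any knockdown comparison stayed at 0. Small log2 fold changes that changed sign ranged as follows. With Activin and control siRNA, Dppa3 ranged from -0.266 to 0.046, Nanog from -0.051 to 0.071, Sall4 from -0.070 to 0.030 and Sox2 from -0.063 to 0.180. With SB, Sall4 ranged from -0.002 to 0.102. For Activin against SB, Dppa3 ranged from -0.070 to 0.203. With Activin and Vprbp siRNA, Dppa2 ranged from -0.169 to 0.006 and Dppa4 from -0.058 to 0.036. For the knockdown without Activin, Dppa5a ranged from -0.118 to 0.075, L1td1 from -0.051 to 0.260, Pou5f1 from -0.023 to 0.052, Sox2 from -0.097 to 0.146 and Utf1 from -0.122 to 0.016. For the knockdown with Activin, Dppa4 ranged from -0.078 to 0.024, L1td1 from -0.065 to 0.040, Pou5f1 from -0.002 to 0.063 and Utf1 from -0.015 to 0.076. For the interaction, Dppa3 ranged from -0.213 to 0.099, L1td1 from -0.274 to 0.039, Pou5f1 from -0.018 to 0.057 and Sall4 from -0.101 to 0.014. In the mean Activin effect, Sox2 ranged from -0.098 to 0.023. In the mean knockdown effect, Dppa2 ranged from -0.073 to 0.017, L1td1 from -0.032 to 0.123, Nanog from -0.002 to 0.059 and Utf1 from -0.041 to 0.028. Dppa3, at 5.09 to 10.2 CPM, has the widest interval of the members with SB.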
